A study of Rattus norvegicus with 9 samples.

Results

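Fibroblast nuclei of the rat kidney were followed across 9 single-nucleus ATAC sequencing (snATAC-Seq) libraries, an assay of open chromatin in barcoded nuclei. They were chosen by a single rule, the cell type label Fibroblast that the authors deposited for each nucleus, which 1958 of 53298 nuclei carried (3.67%). Among the 12 labels, Fibroblast ranked 9, between intercalated cells (IC, 2808 nuclei) and macrophages (Mac, 1455 nuclei). The rats were male Sprague-Dawley rats of a hypertension model, with an age label of 6 weeks, and the tissue was whole kidney. The authors killed most rats 6 weeks after DOCA injections began and some earlier. Whether the label gives age or time on treatment is not stated. Control rats had sham surgery, tap water and injections of sesame oil. All the other rats had lost 1 kidney and received salt in the drinking water and weekly deoxycorticosterone acetate (DOCA), a mineralocorticoid, at 50 mg/kg, so Control differed from them in surgery, salt and hormone together. For the Amiloride group the loss of a kidney follows the sample labels, since the authors' methods text does not list it among the operated groups. The DOCA group was gavaged with vehicle alone. The Finerenone group received finerenone, a nonsteroidal blocker of the mineralocorticoid receptor, at 10 mg/kg/d, and the Spironolactone group received spironolactone, a steroidal blocker of the same receptor, at 50 mg/kg/d. The Amiloride group received amiloride, a blocker of the epithelial sodium channel, at 20 mg/kg/d.

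Kidney fibroblasts lie in the interstitium between tubules and capillaries, where they build and renew the collagen-rich matrix. Myofibroblasts (label MyoFib) are contractile cells of related origin that are known for laying down matrix in fibrosis, and injured proximal tubule cells (iPT) and macrophages are known as sources of signals to both. The markers fixed for fibroblasts were Pdgfrb, a receptor for platelet-derived growth factor, Col1a1 and Col1a2, the chains of type I collagen, and Dcn, the matrix proteoglycan decorin. The tables used here hold labels and map coordinates but no gene values, so accessibility at these 4 genes was not analysed here and the label could not be checked against them. How far the label holds together was therefore read from the map of nuclei alone.

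Every group had 2 libraries, 1 from a chromatin kit (scATAC) and 1 from a joint chromatin and RNA kit (Multiome), except Amiloride, which had 1 Multiome library. Libraries held between 1817 and 15235 nuclei, and between 60 and 453 fibroblast nuclei. Whether 2 libraries of a group came from different rats is not stated, so p values rest on the spread between these libraries, which may be technical. In most fits that spread was pooled over cell types. Of the 1958 fibroblast nuclei, 108 had a barcode that also occurred in another library of the same kit, and in none of these 108 did the other nucleus carry the Fibroblast label. No fibroblast barcode occurred in a library of the other kit. A share of nuclei does not tell more fibroblasts from fewer other nuclei, and no count of cells per kidney was measured.

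The fibroblast share of all nuclei ran from 1.99% to 5.72% with a median of 4.42% over the 9 libraries. In Control it was 2.44% in the scATAC library (60 of 2455 nuclei, 95% interval 1.87 to 3.13) and 4.89% in the Multiome library (249 of 5095, 4.31 to 5.52). In DOCA it was 5.06% (125 of 2471, 4.23 to 6.00) and 4.42% (404 of 9143, 4.01 to 4.86), in the same order of kits. The DOCA Multiome library lay between the Control libraries and the DOCA scATAC library above both. In Finerenone it was 5.72% (104 of 1817, 4.70 to 6.89) and 4.63% (284 of 6132, 4.12 to 5.19). In Spironolactone it was 4.23% (115 of 2721, 3.50 to 5.05) and 2.97% (453 of 15235, 2.71 to 3.26). The Amiloride library had the lowest share, 1.99% (164 of 8229, 1.70 to 2.32). Intervals of single libraries are exact (Clopper-Pearson) and hold only the error of counting. By group the means were 3.67% ± 1.73 for Control, 4.74% ± 0.453 for DOCA, 5.18% ± 0.772 for Finerenone and 3.60% ± 0.886 for Spironolactone (SD, n = 2 each).

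Narrower denominators were used as well because proximal tubule nuclei (PCT, PST and iPT) were the majority of all nuclei. Among the non-proximal nuclei, fibroblasts made up 13%, 14.2%, 18.0% and 17.6% in the scATAC libraries of Control, DOCA, Finerenone and Spironolactone. In the Multiome libraries of the same groups they made up 8.32%, 7.86%, 9.86% and 7.29%, and 3.91% in Amiloride. Every scATAC library was thus above every Multiome library, with means of 15.7% ± 2.46 (SD, n = 4) and 7.45% ± 2.20 (SD, n = 5). Among endothelial (Endo), Fibroblast, MyoFib and Mac nuclei together, fibroblasts made up 35.9%, 41.5%, 52.5% and 40.1% in the scATAC libraries. They made up 34.8%, 26.0%, 35.4%, 29.8% and, in Amiloride, 12.5% of the same 4 types in the Multiome libraries. Here the scATAC library was the higher of the pair in all groups, by the smallest margin in Control.

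**Figure D1:**
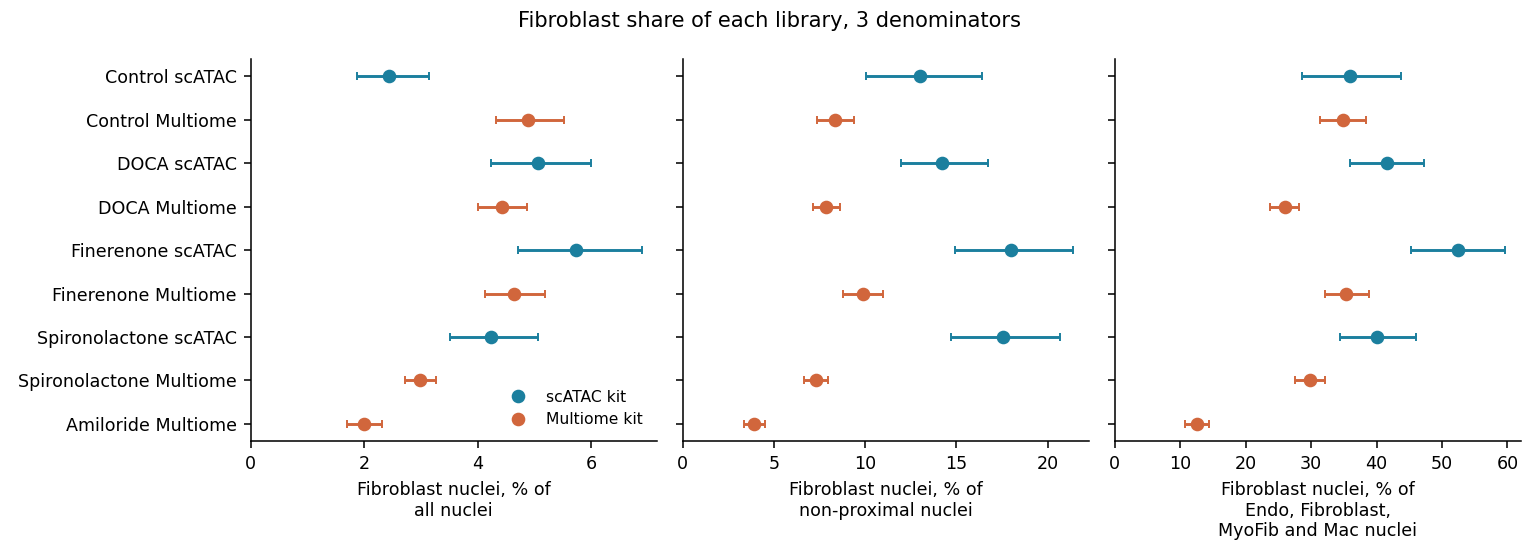
Fibroblast nuclei as a percentage of all nuclei (left), of non-proximal nuclei (middle) and of Endo, Fibroblast, MyoFib and Mac nuclei (right) in each of the 9 libraries. Points are library values, bars exact 95% counting intervals and colours the kit. The scATAC libraries (13% to 18.0%) lie right of the Multiome libraries (3.91% to 9.86%) in the middle panel, and the Amiloride library is lowest in all panels.

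The kit was therefore a term of every model: limma fitted the log2 odds of each cell type over all 9 libraries with group and kit, and adjusted p values follow Benjamini and Hochberg over the types of each denominator. Except among the 4 stromal types, limma gave all types or ratios of a fit a common spread. A p value there does not measure the spread of its own type. The degrees of freedom (36 for all nuclei, 27 for non-proximal nuclei, 33 for ratios) count types or ratios as independent, which they are not. Between the kits, a comparison chosen after its values were seen, the log2 odds of a fibroblast among non-proximal nuclei differed by -1.03 (Multiome minus scATAC, SE 0.318, 95% interval -1.69 to -0.38, adjusted p = 0.0278), the only one of the 9 non-proximal types past the threshold of 0.05 (11.1%). That call was lost when a Control, a DOCA or a Spironolactone library was left out (-1.14, -1.06 and -0.90, adjusted p from 0.0637 to 0.0916) and on the centred log-ratio scale (-0.72, adjusted p = 0.0732). In limma 4 of the 9 types had an unadjusted p under 0.05. Of these, Mac (-0.80) and MyoFib (-0.73) moved as fibroblasts did and IC (0.73) the other way (adjusted p = 0.0687 each). Among all nuclei the kit difference for fibroblasts was -0.01 (SE 0.399, adjusted p = 0.981), where 3 of 12 types passed (25%). Among the 4 stromal types it was -0.69 (SE 0.219, adjusted p = 0.118) and no type passed (0%, 1 at an unadjusted p under 0.05), though the fibroblast difference passed without either Control library (-0.90, adjusted p = 0.0470).

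DOCA against Control asked how the fibroblast compartment differed in the kidneys of the model. The fibroblast share did not pass the test under any denominator, while the ratio of fibroblasts to 6 of the 11 other types did when all libraries were fitted (MyoFib, Mac, iPT, PST, IC and podocytes, with Endo, PCT, LOH, DCT and PC not past the threshold). On the log2 odds scale the difference was 0.46 among all nuclei (95% interval -0.68 to 1.61, adjusted p = 0.453), where 3 of 12 cell types passed (25%). It was 0.03 among non-proximal nuclei (-0.90 to 0.95, adjusted p = 0.951), where 4 of 9 types passed (44.4%). It was -0.14 among the 4 stromal types (-0.96 to 0.69, adjusted p = 0.683), where the other 3 types passed (75%). Within kits the share of all nuclei was higher in DOCA by 1.08 in the scATAC pair and lower by a log2 difference of -0.15 in the Multiome pair. The 2 kits thus did not share a direction. The difference among all nuclei was -0.23 without the Control scATAC library, and the difference among stromal types turned to 0.28 without the Control Multiome library and to 0.08 without the DOCA Multiome library.

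Ratios of fibroblasts to each other type do not depend on the remaining types, but they move with either of their 2 members. Of 11 ratios, 6 passed (54.5%), 4 of them higher and 2 lower in DOCA. Beside the fibroblast difference of 0.46 in the log2 odds among all nuclei, that of Mac was 3.08, iPT 2.39, Podo -2.15 and MyoFib -0.87 (adjusted p = 4.42e-05, 0.000892, 0.00210 and 0.199). They share the fibroblast count and are not independent. With the Control and DOCA libraries alone, none of the 11 passed in limma (smallest adjusted p = 0.130, with 3 at an unadjusted p under 0.05). Control had 7.50 fibroblasts per MyoFib nucleus in the scATAC library (60 to 8 nuclei) and 8.03 in the Multiome library (249 to 31). DOCA had 25 (125 to 5) and 15.5 (404 to 26). Both DOCA libraries lay above the other 7, and the log2 ratio rose by 1.31 (SE 0.562, 95% interval 0.17 to 2.46, adjusted p = 0.0470). This call was near the threshold: adjusted p was 0.0514 with a pseudocount of 1 and 0.180 without the kit term. It was also lost without the Control scATAC library (1.08, adjusted p = 0.187), the DOCA scATAC library (1.06, 0.456), the DOCA Multiome library (1.57, 0.163) and either Spironolactone library (1.31, 0.0626).

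For macrophages the ratio was lower in DOCA. Control had 3.16 and 8.03 fibroblasts per Mac nucleus (60 to 19 and 249 to 31), and DOCA had 1.23 and 0.583 (125 to 102 and 404 to 693). The groups did not overlap here, nor in the ratios to MyoFib, iPT, PST, podocytes and Endo, the last of which did not pass. They overlapped in the ratios to IC, DCT, PC, LOH and PCT. The log2 ratio to Mac fell by 2.55 (SE 0.562, adjusted p = 0.000390). Without the DOCA Multiome library the log2 difference was -1.93 (adjusted p = 0.159), and without the Control Multiome library it was -1.56. Fibroblasts per iPT nucleus were 1.05 and 0.600 in Control and 0.254 and 0.232 in DOCA, and that log2 ratio fell by 1.71 (SE 0.562, adjusted p = 0.0169). The call was lost without the Control scATAC library (-1.23, adjusted p = 0.148) and without either DOCA library (-1.74 and -1.68, 0.182 and 0.159), and without the kit term (0.116). Fibroblasts per Endo nucleus were 0.75 and 0.616 in Control and 1.81 and 0.933 in DOCA, a log2 difference of 0.93 (SE 0.562, adjusted p = 0.168) that passed only without the Control Multiome library (1.28, adjusted p = 0.0451).

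Podocytes, the filter cells of the glomerulus, and macrophages gave the largest of the 11 ratio changes, at nearly the same size (2.57 and -2.55). Control had 1.58 and 1.65 fibroblasts per podocyte nucleus and DOCA had 13.9 and 6.97. The log2 ratio to podocytes rose by 2.57 (SE 0.562, adjusted p = 0.000390). Adjusted p was 0.0506 without the DOCA scATAC library, which had 9 podocyte nuclei.

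**Figure D2:**
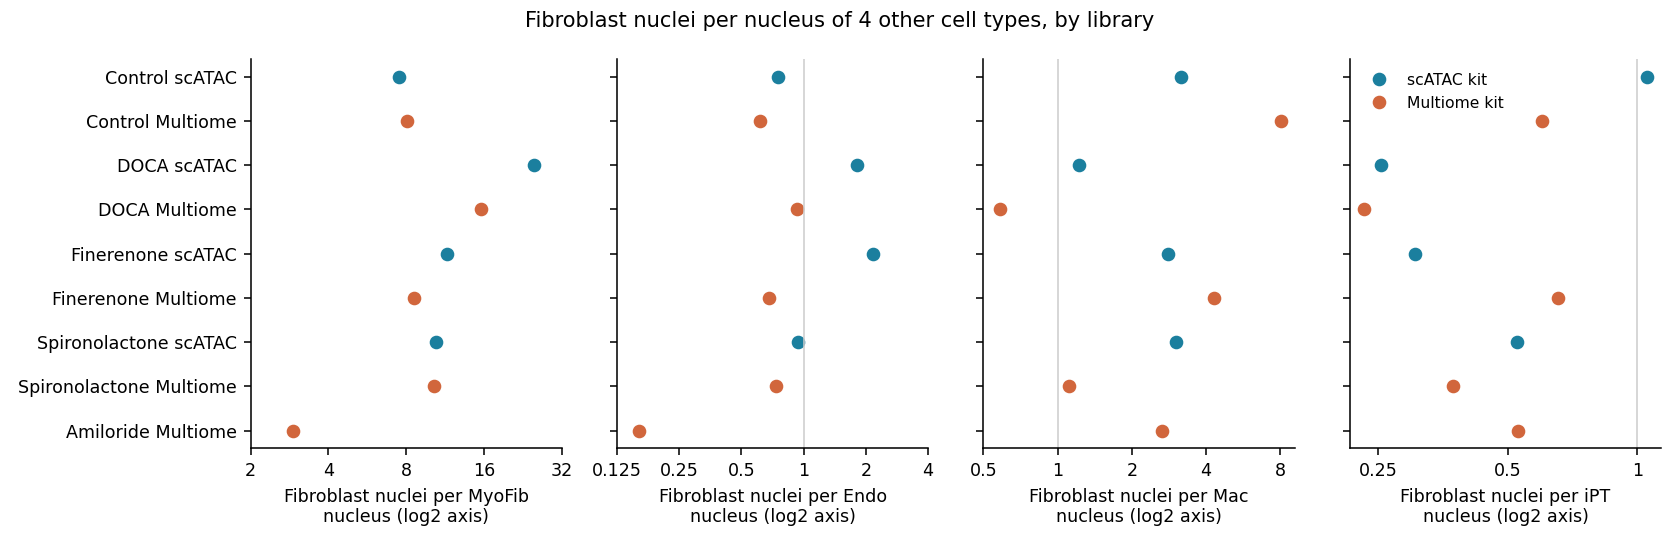
Fibroblast nuclei per nucleus of MyoFib, Endo, Mac and iPT in each library, on log2 axes, with the kit in colour. The 2 DOCA libraries have the highest values for MyoFib (25 and 15.5) and the lowest for iPT (0.254 and 0.232), and the Amiloride library the lowest for MyoFib (2.93) and Endo (0.160).

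The reading as a composition gives the same split from the other side. MyoFib nuclei made up 11.8% (8 of 68, 5.22 to 21.9) and 11.1% (31 of 280, 7.65 to 15.3) of Fibroblast and MyoFib nuclei in Control. In DOCA they made up 3.85% (5 of 130, 1.26 to 8.75) and 6.05% (26 of 430, 3.99 to 8.73). The group means were 11.4% ± 0.490 and 4.95% ± 1.56 (SD, n = 2 each). Finerenone had 7.96% and 10.4% (mean 9.19% ± 1.73), Spironolactone 8.73% and 8.85% (mean 8.79% ± 0.0869) and the Amiloride library 25.5% (56 of 220, 19.8 to 31.7). In the order of the levels, DOCA was lowest, and the ranges of Finerenone and Spironolactone overlapped. Exact permutation, which reassigned groups to libraries of the same kit, gave F = 19.1 over all groups, Amiloride included, and p = 0.0167 for this share. Over the 4 shares permuted, adjusted p was 0.0667. With each library left out in turn the exact permutation p ran from 0.0208 to 0.0833 and its adjusted value from 0.0694 to 0.333. With all 9 libraries the smallest p the design allows is 0.00833, from 120 distinct regroupings. Fewer regroupings remain with a library left out, which raises that floor. The same exact permutation gave p = 0.350 for the fibroblast share of all nuclei, 0.0833 for that of non-proximal nuclei and 0.0833 for that of the 4 stromal types (adjusted p = 0.350, 0.111 and 0.111).

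Finerenone against DOCA addressed the effect of a nonsteroidal receptor blocker in this model. Among all nuclei the fibroblast share differed by 0.13 on the log2 odds scale (95% interval -1.01 to 1.27, adjusted p = 0.818), where 2 of 12 types passed (16.7%). Among non-proximal nuclei it differed by 0.38 (-0.54 to 1.3, adjusted p = 0.404), where 3 of 9 passed (33.3%). Among the 4 stromal types it differed by 0.64 (-0.19 to 1.46, adjusted p = 0.134), where MyoFib alone passed (25%). This last difference was 0.64 within each kit and passed the threshold when only the DOCA and Finerenone libraries were fitted (adjusted p = 0.0129). With 2 libraries per group and a kit term, the spread of that fit comes only from how closely the kits coincide in each type. With each library left out in turn the stromal difference ran from 0.42 to 0.86 (adjusted p from 0.0744 to 0.442). Of the 11 ratios 2 passed (18.2%). Beside the fibroblast difference of 0.13 in the log2 odds among all nuclei, that of Mac was -1.97 and that of Podo 1.92 (adjusted p = 0.00977 each).

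With finerenone there were 2.81 and 4.30 fibroblasts per Mac nucleus (104 to 37 and 284 to 66), both above the DOCA values, and the log2 ratio rose by 2.03 (SE 0.562, adjusted p = 0.0109). The call was lost without the DOCA Multiome library (1.41, adjusted p = 0.591), without the Finerenone Multiome library (1.53, 0.282) and without the kit term (0.142). Fibroblasts per podocyte were 4.52 and 1.75, and the log2 ratio fell by 1.78 (SE 0.562, adjusted p = 0.0185). That call was lost without either DOCA library or the Finerenone Multiome library (-1.60, -1.95 and -1.32, adjusted p = 0.383, 0.321 and 0.282) and without the kit term (0.145). Fibroblasts per MyoFib nucleus were 11.6 and 8.61, below both DOCA values, with a log2 difference of -0.95 (SE 0.562, adjusted p = 0.234). It passed with trended and robust variances (adjusted p = 0.0144) and with libraries thinned to equal nuclei (-1.69, adjusted p = 0.0434). Per Endo nucleus the values were 2.17 and 0.676 (difference -0.10, adjusted p = 0.854) and per iPT nucleus 0.305 and 0.653 (difference 0.88, adjusted p = 0.234, and 0.092 to 1.67 with each library left out in turn). The 2 Finerenone libraries lay on either side of both DOCA libraries in the Endo ratio, which turned to 0.47 without the Finerenone Multiome library.

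Spironolactone against DOCA, which shares the DOCA libraries with the other drug comparisons, gave no change past the threshold in a fibroblast value. The share of all nuclei differed by -0.43 (95% interval -1.58 to 0.71, adjusted p = 0.589, and -0.78 to -0.085 with each library left out), where none of 12 types passed (0%, with 3 at an unadjusted p under 0.05). That of non-proximal nuclei differed by 0.12 (-0.80 to 1.04, adjusted p = 0.852), where none of 9 passed (0%, with 2 at an unadjusted p under 0.05). That of stromal types differed by 0.10 (-0.73 to 0.92, adjusted p = 0.773), where MyoFib alone passed (25%). None of the 11 ratios passed in limma (0%, with 2 at an unadjusted p under 0.05). Fibroblasts per MyoFib nucleus were 10.5 and 10.3, both below the DOCA values (log2 difference -0.88, SE 0.562, adjusted p = 0.292). That difference was -1.74 with thinned libraries (adjusted p = 0.106), and adjusted p was 0.0521 with trended and robust variances. Per Mac nucleus they were 3.03 and 1.11 (1.11, adjusted p = 0.206), per Endo nucleus 0.935 and 0.737 (-0.64, adjusted p = 0.375) and per iPT nucleus 0.525 and 0.373 (0.87, adjusted p = 0.292). With the DOCA and Spironolactone libraries alone 3 ratios passed, that to Mac among them (adjusted p = 0.0238), and leaving out each library in turn moved the Mac difference from 0.25 to 1.98.

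Amiloride against DOCA rests on 1 Amiloride library. Its test takes all of its spread from the other groups and cannot tell the treatment from the library, so the values below describe that library. Per Endo and per MyoFib nucleus the library had the fewest fibroblasts of the 9, and per Mac nucleus more than DOCA. Ratios and the stromal share also move with the other types. Among all nuclei the log2 odds of Endo differed by 1.49, MyoFib by 1.35, PCT by 2.01 and Mac by -3.03, beside -1.28 for fibroblasts. Endo nuclei made up 78.5% of the 4 stromal types in this library. The fibroblast share of the 4 stromal types differed by -1.45 on the log2 odds scale (SE 0.395, 95% interval -2.51 to -0.40, adjusted p = 0.0232), where all 4 types were past the threshold (100%). The shares of all nuclei (-1.28, -2.74 to 0.18, adjusted p = 0.125) and of non-proximal nuclei (-1.03, -2.21 to 0.15, adjusted p = 0.107) did not pass, where 4 of 12 (33.3%) and 4 of 9 types (44.4%) did. The non-proximal share passed with libraries thinned to equal nuclei (-1.35, adjusted p = 0.0405). The stromal call was lost without either DOCA library (-1.29 and -1.73, adjusted p = 0.0667 and 0.0603), as centred log-ratios (-0.87, adjusted p = 0.0925) and with thinned libraries (-1.72, adjusted p = 0.0847).

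Of the 11 ratios 6 were past the threshold (54.5%), 5 of them lower in the Amiloride library. There were 0.0495 fibroblasts per PCT nucleus (164 to 3312), against 0.176 and 0.317 in DOCA, a log2 difference of -2.70 (SE 0.716, adjusted p = 0.00372). Per Endo nucleus there were 0.160 (164 to 1027), a difference of -2.61 (SE 0.716, adjusted p = 0.00372). Per MyoFib nucleus there were 2.93 (164 to 56), the lowest of the 9 libraries, a difference of -2.58 (SE 0.716, adjusted p = 0.00372). Per Mac nucleus there were 2.65 (164 to 62), a difference of 1.71 (SE 0.716, adjusted p = 0.0426). Per iPT nucleus there were 0.527, a log2 difference of 1.16 (SE 0.716, adjusted p = 0.140). Without either DOCA library none of the 11 ratios passed in limma (5 at an unadjusted p under 0.05 each time): without the scATAC library the PCT, Endo and MyoFib ratios had adjusted p = 0.0594 and the Mac ratio 0.0742, and without the Multiome library 0.0634 and 0.432. The Mac call was also lost without either Spironolactone library (1.49, adjusted p = 0.110), without the kit term (0.138), with trended and robust variances (0.111) and with thinned libraries (0.0933), and the PCT call without the kit term (-2.25, adjusted p = 0.0537) and with trended and robust variances (0.0668).

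Finerenone and Spironolactone, given at different doses, were set side by side as a pair of receptor blockers. The fibroblast share differed by 0.56 among all nuclei (95% interval -0.58 to 1.71, adjusted p = 0.650), 0.26 among non-proximal nuclei (-0.66 to 1.18, adjusted p = 0.639) and 0.54 among stromal types (-0.28 to 1.37, adjusted p = 0.292). Leaving out each library moved the first from 0.22 to 0.91 and the last from 0.33 to 0.76. With all libraries fitted, 1 of 12 (8.33%), 1 of 9 (11.1%) and none of 4 types passed (0%, and none at an unadjusted p under 0.05). Within kits the share of all nuclei was higher with finerenone by 0.46 and 0.67. The fibroblast ratio differed by -0.07 for MyoFib, 0.54 for Endo, 0.92 for Mac and 0.01 for iPT (SE 0.562, adjusted p from 0.410 to 0.982), and that for Mac ran from 0.053 to 1.78 with each library left out. The intervals were wide, from -1.21 to 1.08 for MyoFib. Beside the fibroblast difference of 0.56 in the log2 odds among all nuclei, that of Podo was 2.31 (adjusted p = 0.00267). Of the 11 ratios 1 passed (9.09%), that to podocytes, with 4.52 and 1.75 fibroblasts per podocyte in Finerenone and 11.5 and 8.09 in Spironolactone (difference -1.75, SE 0.562, adjusted p = 0.0415). It was lost without either DOCA library (-1.75, adjusted p = 0.144), without the Finerenone Multiome library (-1.3, 0.227) and without the Spironolactone scATAC or Multiome library (-1.89 and -1.61, 0.147 and 0.475). Adjusted p was 0.313 without the kit term and 0.0768 with only the Finerenone and Spironolactone libraries.

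**Figure D3:**
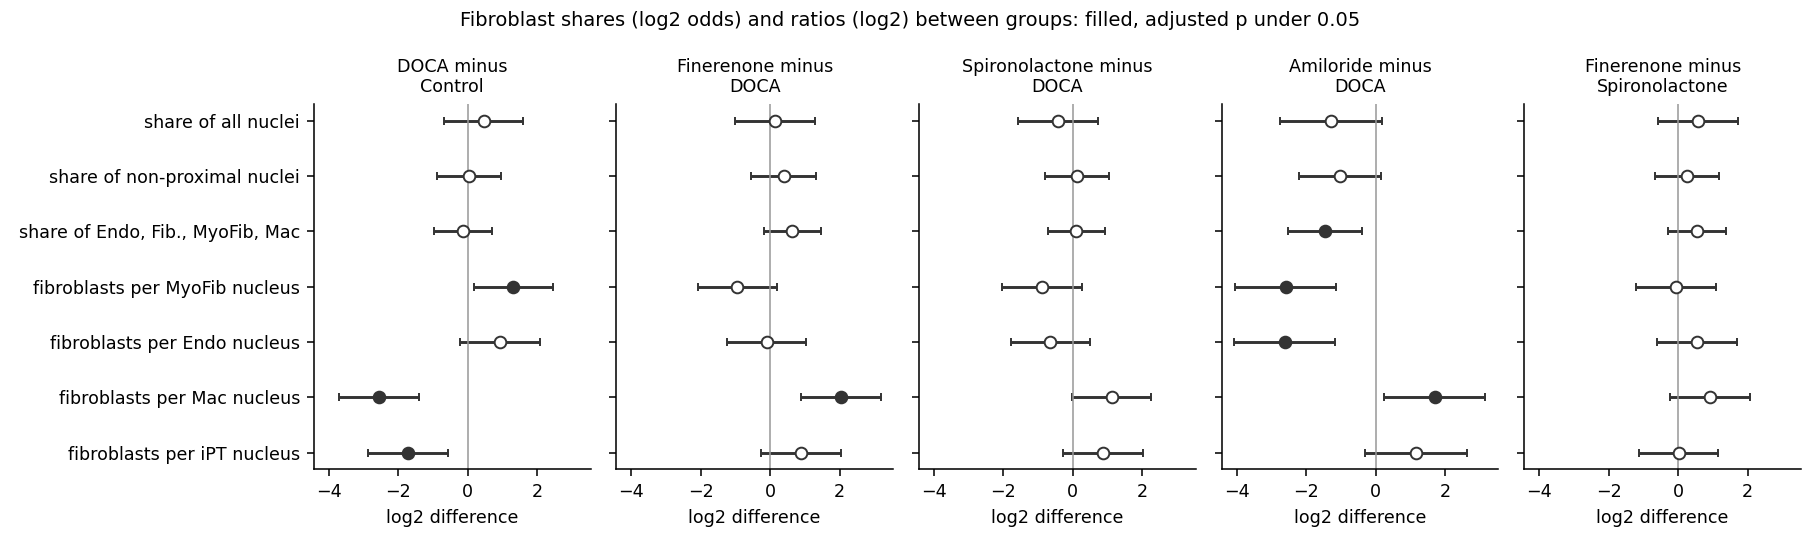
Differences between groups in the fibroblast share (log2 odds, top 3 rows) and in the log2 ratio of fibroblasts to 4 other types (lower 4 rows), with 95% intervals from limma. Filled points had an adjusted p under 0.05. No share passed except that of stromal types in Amiloride (-1.45), which rests on 1 library with its spread taken from the other groups. The Mac ratio is left of 0 in DOCA minus Control (-2.55) and right of 0 in each drug group minus DOCA (2.03, 1.11 and 1.71). These differences share the DOCA libraries with opposite sign and are not independent. The 1.11 of Spironolactone did not pass, and the 1.71 of Amiloride rests on 1 library.

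Across libraries the fibroblast share was set beside the shares of 4 other types, as deviations from the mean of the kit because the kits form separate clusters in the non-proximal share. With the iPT share of proximal nuclei, which has another denominator, Pearson's r was 0.31 and Spearman's rho 0.28 over 9 libraries (exact permutation p = 0.446 and 0.479, adjusted p = 0.892 and 0.855 over 4 relations). Leaving out both DOCA libraries, whose iPT deviations lay farthest from the median deviation, gave r = 0.70 (exact permutation p = 0.139), and leaving out each library in turn gave r from 0.081 to 0.48. With both kits together and both types as shares of all nuclei, r was 0.75 and rho 0.77 (exact permutation p = 0.0189 and 0.0214, adjusted p = 0.0755 and 0.0856). With the MyoFib share r was 0.03 and rho -0.13 (exact permutation p = 0.932 and 0.749, adjusted p = 0.932 and 0.855), and r was -0.40 without both DOCA libraries. With the Mac share r was 0.04 and rho 0.08 (exact permutation p = 0.909 and 0.855, adjusted p = 0.932 and 0.855), and r was 0.28 without both DOCA libraries. With the Endo share r was -0.43 and rho -0.18 (exact permutation p = 0.280 and 0.690, adjusted p = 0.892 and 0.855). That value was -0.28 without the Amiloride Multiome and Spironolactone scATAC libraries, and it was 0.07 without the Amiloride library alone. Within kits, r with iPT was 0.31 in both (n = 4 and 5), while r with MyoFib was 0.29 in the scATAC and -0.32 in the Multiome libraries. None of the 4 relations had an adjusted p under 0.05 in these settings.

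On the UMAP, the map of nuclei that the authors deposited, fibroblasts formed 1 island. At a radius of 0.5 and at least 10 nuclei, 1945 of the 1958 nuclei (99.3%) lay in it, and there was also 1 island at radii of 0.25 and 1. It spanned -9.68 to -6.44 on the first coordinate and -0.02 to 2.62 on the second, in a map that ran from -9.98 to 6.79 and from -7.48 to 9.97. Of the 15 nearest nuclei of a fibroblast, 94.8% also carried the Fibroblast label, against a 3.67% share of all nuclei, and for 1233 fibroblasts (63.0%) all 15 did. The authors named clusters from the data behind this map, so this describes the label and does not test it. The most frequent other neighbours were MyoFib (1.11%), PST (1.1%) and PCT nuclei (0.800%). For 24 fibroblasts (1.23%) under 50% of the neighbours shared the label. The centre of the MyoFib nuclei lay 2.10 from the fibroblast centre, nearer than those of Endo (4.53), iPT (8.52) and Mac (11.4). UMAP distances have no unit and are not to scale over long ranges.

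Spread about the centre was given by library. The median distance from the centre of all fibroblast nuclei was 0.856 and 0.871 in Control, 1.12 and 0.865 in DOCA, 0.824 and 0.737 in Finerenone, 0.749 and 0.798 in Spironolactone and 0.773 in Amiloride. The 4 Control and DOCA libraries (0.856 to 1.12) lay above the 5 libraries with a drug (0.737 to 0.824) by this measure, but not by the mean distance or by the median distance from the centre of each library's own fibroblasts. By that last measure Control had 0.759 and 0.716 and Finerenone 0.889 and 0.705. The exact permutation of the 5 groups within kits gave p = 0.25 (adjusted p = 0.25 over 2 measures). The share of neighbours with the Fibroblast label ran from 93.3% in the DOCA Multiome library to 96.5% in Amiloride (exact permutation p = 0.108, adjusted p = 0.217).

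Position along the island did differ between libraries, and the following description was chosen after the map was seen and carries no test. The island was cut by the first coordinate into 4 segments with 25% of all fibroblast nuclei each, with the left edge at -9.04 and the right edge at -7.63. The right segment held 16.7% (10 of 60, 95% interval 8.29 to 28.5) and 14.1% (35 of 249, 9.99 to 19.0) of the Control fibroblasts. It held 34.4% (43 of 125, 26.1 to 43.4) and 36.1% (146 of 404, 31.4 to 41.0) of the DOCA fibroblasts. Both DOCA libraries were above the other 7, which ran from 14.1% to 30.8%. Finerenone had 30.8% and 19.0%, Spironolactone 19.1% and 26.9% and Amiloride 15.9%. The scATAC library was the higher one with finerenone and the lower one with spironolactone. With every library given equal weight in setting the edge (-7.69), the DOCA values were 35.2% and 37.4% and those of Control 16.7% and 15.3%.

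The left segment mirrored this in part. It held 36.7% and 37.3% of the Control fibroblasts and 12% and 23.5% of those of DOCA, with 19.2% and 24.6% in Finerenone, 21.7% and 21.0% in Spironolactone and 33.5% in Amiloride. Fibroblasts made up 99.4% of the neighbours in the left segment, 96.8% and 92.8% in the second and the third and 90.1% in the right segment. MyoFib nuclei made up 0% of the neighbours in the left, 2.13% in the third and 1.78% in the right segment, while Endo, iPT and Mac nuclei made up 0% in the left and 1.16%, 1.14% and 0.367% in the right segment. Tubular labels were as frequent at the right end, with 1.65% PCT, 1.65% PST and 1.39% LOH nuclei against 0.0952%, 0% and 0% in the left segment. Segments differ in how many nuclei of each library they hold, and the part of quality per nucleus, which the tables do not give, was not tested.

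**Figure D4:**
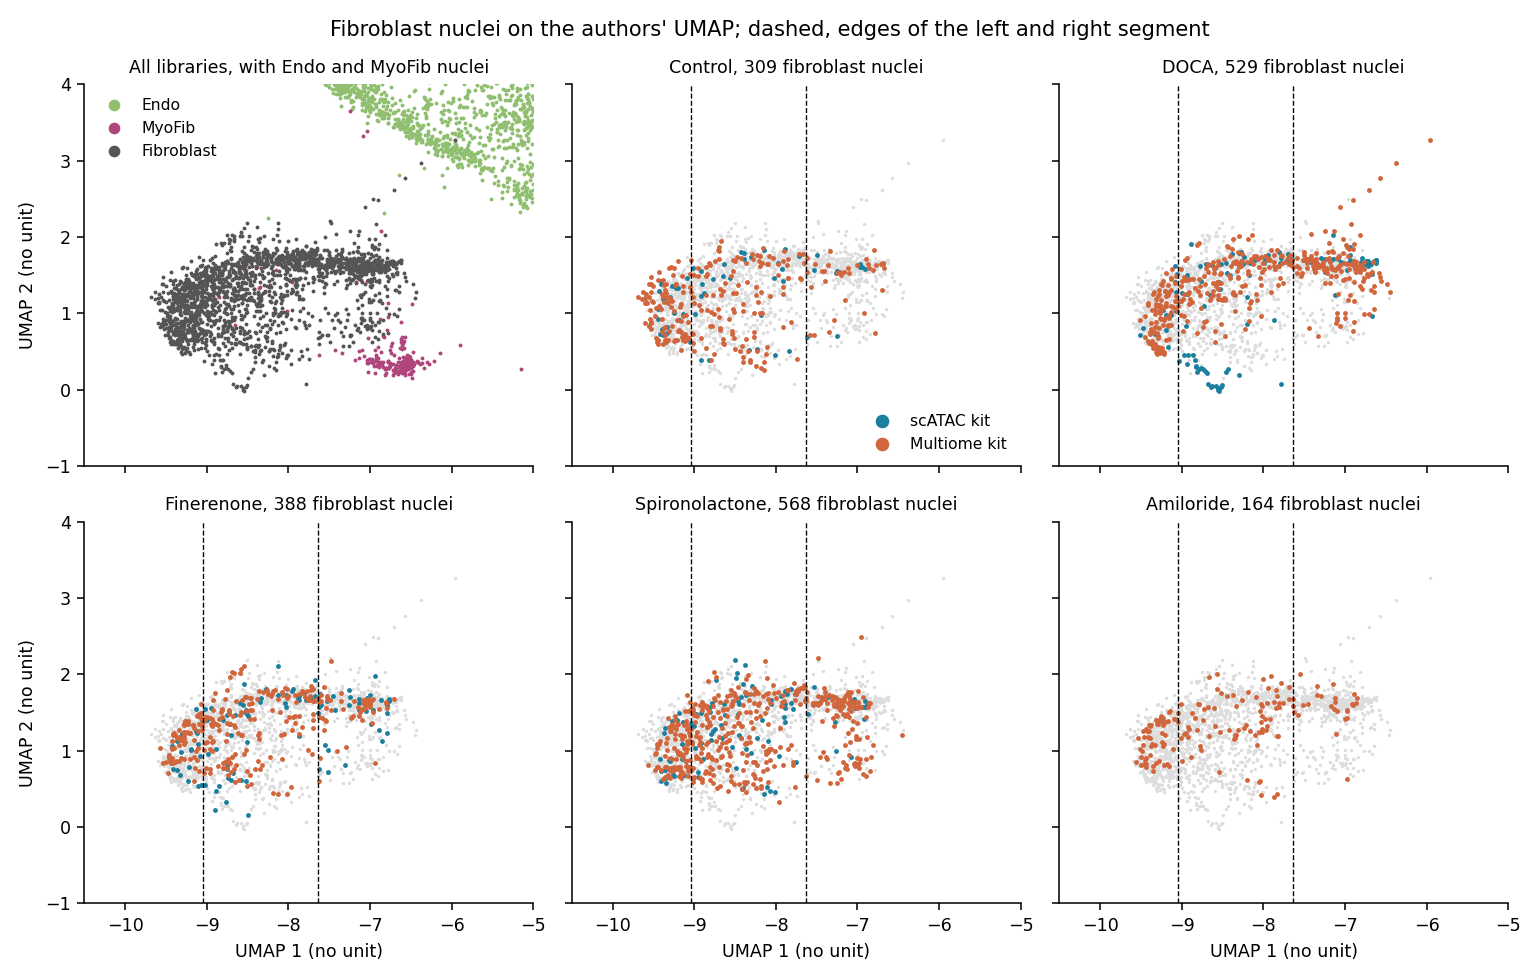
Fibroblast nuclei on the deposited UMAP (both axes without unit), with Endo and MyoFib nuclei beside them in the first panel and each group in colour by kit over all fibroblasts (grey) in the other 5, cropped to the region of the island. The dashed lines are the edges of the left and right segment at -9.04 and -7.63. DOCA nuclei are dense at the right end, where Control has few (34.4% and 36.1% against 16.7% and 14.1%).

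**Figure D5:**
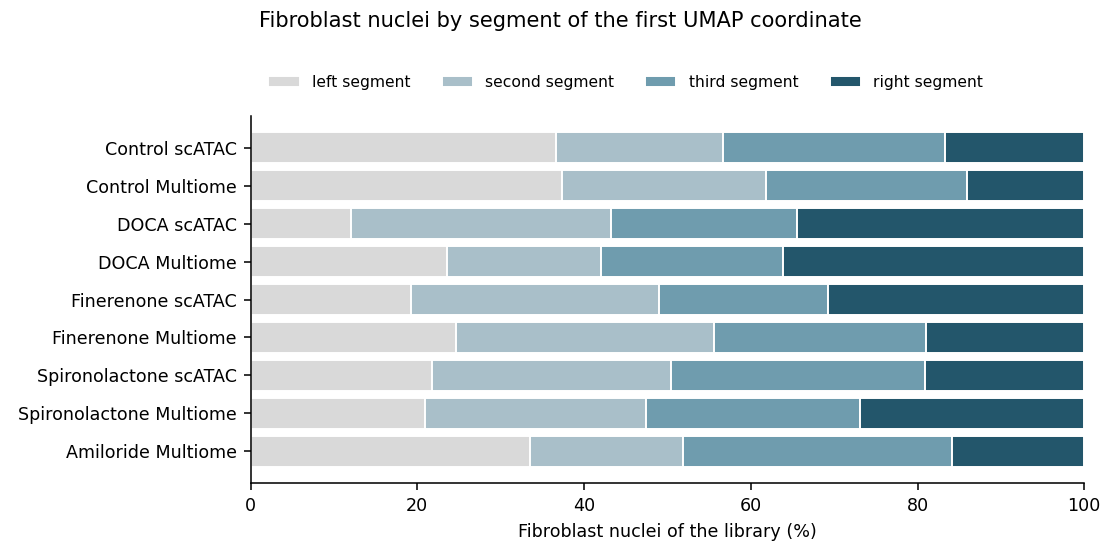
Percentage of the fibroblast nuclei of each library in each segment of the first UMAP coordinate, which hold 25% of all fibroblast nuclei each. The darkest segment, the right segment, is widest in the 2 DOCA libraries (34.4% and 36.1%), and the palest, the left segment, in the 2 Control libraries (36.7% and 37.3%).

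Below the right end, 83 fibroblasts lay in the right segment at a second coordinate under 1.2, on the side of the MyoFib nuclei. Of these, 38 came from the Spironolactone Multiome library (8.39% of its fibroblasts), 18 from the DOCA Multiome library (4.46%) and between 1 and 7 from each other library (0.610% to 5.77%, with the highest of these shares in Finerenone scATAC). The arc above it held the remaining 407 nuclei of the segment, with 33.6% and 31.7% of the DOCA fibroblasts, 13.3% and 11.2% of those of Control, 25% and 16.9% of Finerenone, 15.7% and 18.5% of Spironolactone and 15.2% of Amiloride. In the upper arc both DOCA libraries were above both Control libraries, as they were below them in the left segment.

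The DOCA scATAC library stood apart within the fibroblasts. Of the fibroblast neighbours of its nuclei, 26.8% came from the same library, where an even mix of all fibroblast nuclei would give 6.34%, a ratio of 4.24. In the other libraries that ratio ran from 1.05 to 1.60. At the lower tip of the island, under 0.3 on the second coordinate, 20 of 24 nuclei were from this library, and without them 19.1% of its fibroblast neighbours were its own. Of the 13 fibroblasts outside the island, 6 were from the DOCA Multiome library.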

How the data were processed

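Nuclei from whole rat kidneys were sequenced by snATAC-Seq in 9 libraries. The authors aligned reads to the rat genome build rn6 with Cell Ranger ATAC 1.1.0, filtered nuclei on fragments in peaks, reads in peaks, nucleosome signal and TSS enrichment, merged and clustered them in Signac 1.3.0 with Harmony for batch effects, and gave clusters cell type names by open chromatin at markers. Such filters act before deposit, so a loss that differed between labels is part of every share. Besides naming clusters by markers, the authors transferred labels from their single-nucleus RNA sequencing to these nuclei and reported strong consistency. The supplementary methods give another number of merged libraries than the 9 analysed here. The deposited metadata are labels per nucleus, and the deposited UMAP coordinates are a score without unit. Columns with the authors' own comparisons were not among them. No further filter and no doublet caller was applied.

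The treatment recorded with each library code gave its group, and the barcode list gave its kit (pairs of Multiome libraries shared 53 to 244 barcodes, scATAC pairs 5 to 13, mixed pairs at most 1). The codes of both DOCA libraries share a stem, as do those of both Spironolactone libraries and those of the Control Multiome and Amiloride libraries. Whether the DOCA pair or the Spironolactone pair came from a single rat is not stated, so n counts libraries.

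Nuclei were counted per library and label (Python 3.11.15, pandas 2.3.3), and log2((count + 0.5)/(rest + 0.5)) was fitted with limma 3.58.1 in R 4.3.3 on group and kit, as were 11 log2 ratios (pseudocount 0.5). In the fits of all nuclei, non-proximal nuclei and ratios limma gave all types a common spread. The replicate was the library, never the nucleus. Permutations and intervals used scipy 1.17.1, and neighbours and islands scikit-learn 1.9.0. By the rule for named cell types the text gives fibroblasts in every comparison with MyoFib, Endo, Mac and iPT beside them, and others as up to 2 ratios per comparison past the threshold with the largest change. The fibroblast nuclei, lists and tests were chosen with earlier results of these data known. A correlation over all libraries had been planned and was replaced by deviations from the kit mean once the kits proved separate. The steps were tested on simulated data. Alternatives were no kit term, arcsine or centred log-ratio scales, a pseudocount of 1, trended and robust variances, libraries thinned to 1817 nuclei, only the groups compared and each library left out.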

Additional observations from a re-analysis of the deposited data

How the results depend on the processing

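Of 786 alternative values, 658 kept their direction and their side of the threshold or moved little, 57 lost and 8 gained a call, 39 reversed and 24 moved. The causes were not tested. With libraries thinned to equal nuclei, the share of all nuclei differed by -0.029 in Finerenone minus DOCA, that of non-proximal nuclei by -1.35 in Amiloride minus DOCA (adjusted p = 0.0405, now past the threshold), that of stromal types by 0.014 in DOCA minus Control and -1.72 in Amiloride minus DOCA, and the MyoFib and iPT ratios by 0.054 and -0.019 in Finerenone minus Spironolactone. As centred log-ratios, Spironolactone minus DOCA was -0.022 among non-proximal nuclei and -0.10 among stromal types, and Amiloride minus DOCA -0.87 among stromal types. With only the groups compared, which leaves 2 libraries per group, Finerenone minus DOCA was 0.64 among stromal types (adjusted p = 0.0129). Of the 11 ratios, 2 (DOCA minus Control) and 0 (Finerenone minus DOCA, Finerenone minus Spironolactone, with 2 and 1 at an unadjusted p under 0.05) passed in limma without the kit term, 4 (Finerenone minus DOCA) with trended and robust variances, and 0 (DOCA minus Control, Finerenone minus Spironolactone, with 3 and 1 at an unadjusted p under 0.05) and 3 (Spironolactone minus DOCA) with only the groups compared. With kits together and shares of all nuclei, the relation to the iPT share gave r = 0.75 (exact permutation adjusted p = 0.0755). That to the MyoFib share gave r = -0.10 with kits together, -0.12 on log2 odds and -0.40 without both DOCA libraries.

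Leaving out each library in turn, which assumes that a lone library varies like the other groups, DOCA minus Control ran from -0.23 to 1.16 among all nuclei, -0.18 to 0.23 among non-proximal nuclei and -0.55 to 0.28 among stromal types. Finerenone minus DOCA ran from -0.081 to 0.34 among all nuclei, and its Endo ratio from -0.68 to 0.47. Spironolactone minus DOCA ran from -0.15 to 0.39 among non-proximal nuclei and -0.12 to 0.31 among stromal types, and Amiloride minus DOCA from -1.73 to -1.29 among stromal types. Finerenone minus Spironolactone ran from -0.011 to 0.53 among non-proximal nuclei, and its MyoFib, Endo and iPT ratios from -0.21 to 0.078, -0.031 to 1.11 and -0.77 to 0.80. The kit difference among all nuclei ran from -0.36 to 0.16. Ratios past the threshold numbered 1 to 8 in DOCA minus Control, 0 to 2 in Finerenone minus DOCA, 0 to 1 in Spironolactone minus DOCA, 0 to 6 in Amiloride minus DOCA and 0 to 1 in Finerenone minus Spironolactone. The relations ran from 0.081 to 0.48 (iPT), -0.33 to 0.39 (MyoFib), -0.23 to 0.19 (Mac) and -0.67 to 0.069 (Endo).

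No paired analysis was possible because the replicate numbers only name libraries. The kit, held once by each replicated group, was in the model. Amiloride minus DOCA with only the groups compared was not run, since no residual degrees of freedom were left. A library of 60 fibroblasts or 5 MyoFib nuclei limits precision, and 1 Amiloride library gives no spread of its own.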

Other observations

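The label of a nucleus and its place on the map did not always match. Of the 51340 nuclei with another label, 114 (0.222%) had more than 50% Fibroblast nuclei among their 15 nearest. MyoFib nuclei did so most often, 25 of 223 (11.2%), and the rest were mainly tubular, with 27 PST, 19 LOH and 18 PCT nuclei, while no podocyte nucleus did. Per 100 fibroblasts there were between 3.33 (Control scATAC) and 10.4 (Spironolactone scATAC) such nuclei in a library. These 25 MyoFib nuclei bear on the ratio of fibroblasts to MyoFib, which rests on 5 to 56 MyoFib nuclei per library.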
